A study of Rattus norvegicus with 62 samples.

Results

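The comparison described here set 5 heart samples of male Wistar rats dosed with rosiglitazone at 80 mg/kg/day against 5 samples of rats given vehicle, all from the latest of the 4 sampling times of the study, labelled 336 h. These 10 samples, each read on 1 Affymetrix rat array, were chosen by their titles and were part of 62 arrays in all. Wistar rats are an outbred laboratory strain, so animals of a group differ genetically, and the labels name no allele, transgene or disease model. Vehicle (0 mg/kg/day), 10 mg/kg/day or 80 mg/kg/day was given by mouth once a day during 14 days, and all groups shared this dosing by mouth, the male sex and the strain. Besides the 5 vehicle arrays and the 5 arrays at 80 mg/kg, 6 arrays at 10 mg/kg were made at 336 h. Earlier arrays were made at 6 h (4 vehicle and 5 at 80 mg/kg), 24 h (6 and 5) and 168 h (5 and 6). By the labels the hours count from the last dose, but 14 days of dosing also last 336 h, and a count from the first dose and a count from the last cannot be told apart from the values. The age of the rats is not given in the sources used here, and the tissue is labelled only as cardiac muscle, with no chamber named.

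Rosiglitazone is a thiazolidinedione, a glucose-lowering drug that activates PPAR gamma, a nuclear receptor. PPAR gamma pairs with the retinoid X receptor, binds DNA at paired copies of a short element, and turns on genes of fatty acid binding, uptake and storage, best known from fat cells but also active in the endothelial cells that line capillaries. Heart muscle burns mostly fatty acids, which reach it across that capillary wall, while the related receptor PPAR alpha controls the oxidation enzymes inside the muscle cell. Thiazolidinediones are also known to cause fluid retention, and the question behind the series is what the drug does to gene expression in the heart.

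Values are log2 signals after quantile normalization, so 1 unit is a doubling, and a difference is the mean of the treated arrays minus the mean of the vehicle arrays with its standard error (SE). Each gene is read by 1 or more probe sets, each a small set of oligonucleotides against the same transcript. A gene is written as higher, rising, lower or falling only where its adjusted p was under 0.05 in a linear model fitted with limma over all 18625 tested probe sets. At 336 h all 16 arrays fell in the same cluster of the first principal components, no pair held identical values, and rank correlations within a group ran from 0.937 to 0.952. The ventricular genes Myh6 (13.83 to 14.04 over the 16 arrays) and Myl2 (13.54 to 13.77) were high throughout, and the atrial myosin light chain Myl7 lay between 4.998 and 8.53, against a highest value of 12.94 over all 62 arrays. Nothing in the labels says whether the samples of a group are different rats, and p-values then speak only for the spread among the samples, which may be technical.

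The proximal promoters of 5 of the genes that changed are printed here, because these genes had the largest rise (Rbp7, a retinoid carrier of endothelium and fat), the largest fall (Aqp1, a water channel), a rise at 336 h with a different effect at 6 h by at least 1 probe set (Akap12 and Ccn2) or, as an interferon-induced chemokine, a match to more than 1 of the motifs searched (Cxcl9). Each run is the 250 bases before the gene's start, 5′ to 3′ on the gene's own strand, from RefSeq on build GRCr8, in lower case with capitals at the motifs named after them.
Rbp7 (chr5:165177400-165177649, minus strand): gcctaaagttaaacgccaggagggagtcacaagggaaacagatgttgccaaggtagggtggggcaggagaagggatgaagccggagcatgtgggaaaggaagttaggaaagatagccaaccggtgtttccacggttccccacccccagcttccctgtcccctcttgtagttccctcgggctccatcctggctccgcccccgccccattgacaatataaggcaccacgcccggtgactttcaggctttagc
Aqp1 (chr4:85812534-85812783, plus strand): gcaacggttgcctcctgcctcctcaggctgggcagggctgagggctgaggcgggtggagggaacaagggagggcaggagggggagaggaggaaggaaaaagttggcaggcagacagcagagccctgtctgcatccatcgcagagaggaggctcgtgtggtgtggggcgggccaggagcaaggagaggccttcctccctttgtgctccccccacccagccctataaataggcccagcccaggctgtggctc
Akap12 (chr1:43135265-43135514, plus strand): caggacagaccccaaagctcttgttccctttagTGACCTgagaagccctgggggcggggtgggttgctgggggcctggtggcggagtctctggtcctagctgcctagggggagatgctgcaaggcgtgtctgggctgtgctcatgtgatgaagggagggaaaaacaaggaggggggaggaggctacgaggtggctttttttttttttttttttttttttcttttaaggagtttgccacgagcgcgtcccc
Ccn2 (chr1:22624615-22624864, minus strand): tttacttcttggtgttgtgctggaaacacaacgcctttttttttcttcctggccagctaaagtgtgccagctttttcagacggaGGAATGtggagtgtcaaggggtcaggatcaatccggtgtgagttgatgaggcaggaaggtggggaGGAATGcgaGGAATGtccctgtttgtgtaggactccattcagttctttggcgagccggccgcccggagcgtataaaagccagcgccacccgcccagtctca
Cxcl9 (chr14:16006916-16007165, plus strand): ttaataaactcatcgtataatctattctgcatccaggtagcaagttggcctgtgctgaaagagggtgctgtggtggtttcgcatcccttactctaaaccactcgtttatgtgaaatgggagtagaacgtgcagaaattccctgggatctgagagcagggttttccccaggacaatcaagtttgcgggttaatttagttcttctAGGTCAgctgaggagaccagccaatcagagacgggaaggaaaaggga
Capitals mark AGGTCA, the short element that nuclear receptors share, at −217 in Akap12 (on the other strand) and −47 in Cxcl9, and GGAATG, the letters bound by TEAD factors, at −166, −101 and −92 in Ccn2, counted to the first base of the match. Of 33469 rat promoters, 32 (0.0956%) held GGAATG at least 3 times. In all 4 motifs were searched on both strands from 250 bases before to 50 after the start, and 34 of the 44 changed genes had a promoter in the table. The direct repeat of AGGTCA with 1 base between its copies, the full element of PPAR with the retinoid X receptor, was in 0 of the 34 and in 0.0538% of all promoters. AGGTCA alone was in 4 of the 34 (11.8%, against 16.2% of all), the STAT motif TTCNNNGAA in 3 (8.82% against 8.87%) and GGAATG in 6 (17.6% against 14.2%). Cxcl9 held AGGTCA and the STAT motif, but the STAT match was not within the printed run. Lck and Ctla2a, which are not printed, also matched more than 1 motif. A match is a description of letters, not a binding site, and none of these motifs in Rbp7 or Aqp1 means only that the letters are not in this window.

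In hearts given 80 mg/kg, 54 probe sets differed from vehicle, 46 higher (0.247% of the 18625 tested) and 8 lower (0.043%), or 0.29% in all. They named 44 genes, 37 of which rose and 7 fell. A pair of genes of capillary lipid and retinoid handling stood far above the rest, with Rbp7 17.2-fold and Gpihbp1 6.16-fold higher. The water channel gene Aqp1 had the smallest p of all probe sets tested and was 3.24-fold lower. The plot of all tested probe sets shows these 3 genes apart from the cloud of the others. The vehicle and treated arrays did not overlap for 48 of the 54 probe sets, where 2.52% of all tested probe sets had groups that did not overlap. In all 54 the 5 treated arrays were either all above or all below the mean of the vehicle arrays, as in 4119 of all 18625 tested probe sets, and the 54 were selected on these arrays. The size of the differences, regardless of sign, ran from 0.35 to 4.10 with a median of 0.82, against a median size of 0.13 over all tested probe sets. At an unadjusted p under 0.05 there were 1298 probe sets, or 6.97%. Without quantile normalization, on the deposited scale, 5 of the 54 passed, among them probe sets of Rbp7, Gpihbp1, Fabp4 and Aqp1, and the other 27 of the 31 changed genes named here by rule kept their direction without a call. The 10 arrays fitted alone gave 27 calls, 16 of them among the 54.

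**Figure D1:**
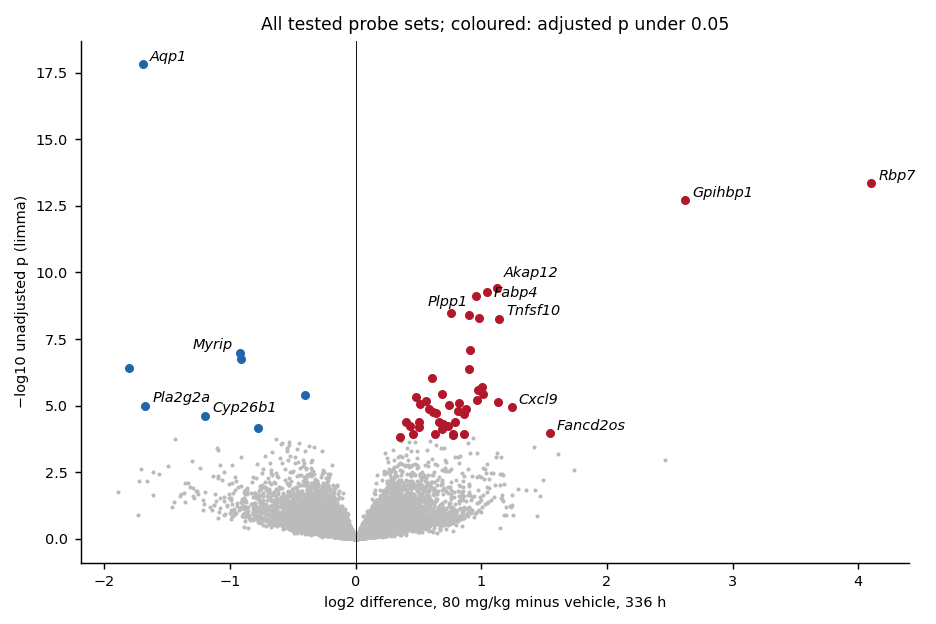
Each point is 1 of the 18625 tested probe sets, with the log2 difference between 80 mg/kg and vehicle at 336 h on the x axis and −log10 of the unadjusted limma p on the y axis. The 46 probe sets that rose are red and the 8 that fell are blue, and Rbp7, Gpihbp1 and Aqp1 lie farthest from the rest.

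Gpihbp1, Fabp4 and Fabp5, genes of fatty acid entry across the capillary wall, rose, and Rbp7, which carries retinol inside endothelial and fat cells, rose most. In replicate order, vehicle 2 to 6 and treated 1 to 5, as for all genes below, the vehicle arrays of Rbp7 read 7.24, 7.93, 7.81, 7.75 and 7.96 and the treated arrays 11.73, 12.52, 11.10, 12.04 and 11.83. Every treated array stood far above every vehicle array. The difference was 4.10 (SE 0.40, adjusted p = 4.23e-10), a rise of 17.2-fold with a 95% interval of 9.83 to 30.02.

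Gpihbp1 encodes the protein that holds lipoprotein lipase on the luminal face of capillaries, where the enzyme frees fatty acids from circulating triglyceride. Vehicle arrays read 7.43, 7.48, 7.72, 8.37 and 8.29 and treated arrays 10.57, 11.06, 10.20, 10.31 and 10.27. The groups were apart by more than the spread of either, with a difference of 2.62 (SE 0.27, adjusted p = 1.22e-09), or 6.16-fold (4.25 to 8.94). Lpl itself, the lipase that Gpihbp1 carries, read 13.20 ± 0.10 (SD, n = 5) in vehicle and 13.14 ± 0.12 (SD, n = 5) in treated arrays, a difference of −0.05 whose 95% interval ran from −0.18 to 0.08 (adjusted p = 0.983).

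Fabp4 and Fabp5, fatty acid binding proteins found in endothelium, both rose. Fabp4, the carrier of fat cells, macrophages and capillary endothelium, read 11.91, 11.91, 11.90, 11.81 and 11.87 in vehicle arrays and 12.85, 13.24, 12.60, 13.02 and 12.91 in treated arrays. The vehicle arrays lay close together and all treated arrays stood above them, at a difference of 1.04 (SE 0.14, adjusted p = 2.03e-06), or 2.06-fold. Fabp5, a related carrier of skin and endothelium, read 9.87, 9.91, 10.25, 9.72 and 9.96 against 10.71, 11.46, 10.29, 10.70 and 10.65. Treated replicate 2 was the highest and treated replicate 3 came close to the highest vehicle array, and the difference was 0.82 (SE 0.17, adjusted p = 0.00572), which lost its call without treated replicate 2 (difference 0.64, adjusted p = 0.0769).

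Across the list of capillary lipolysis and fatty acid uptake, 3 of 16 measured genes rose (Gpihbp1, Fabp4 and Fabp5), none fell, and the median difference was 0.10. Over all 10557 genes, each by its brightest probe set, 0.398% passed the test and the median was 0.0043. This list, like the others, was chosen with earlier results of these data known, so its counts are a description and not a test. Among the other 13, the fatty acid translocase Cd36 differed by 0.35 (SE 0.18, adjusted p = 0.751), the muscle carrier Fabp3 by −0.06 and the transporter Slc27a1 by −0.43 (adjusted p = 0.702). The receptor itself, Pparg, read 6.63, 6.61, 5.95, 7.25 and 6.48 in vehicle and 7.27, 7.10, 6.75, 6.91 and 7.19 in treated arrays. Those groups overlapped, with a difference of 0.46 (SE 0.22, adjusted p = 0.673).

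**Figure D2:**
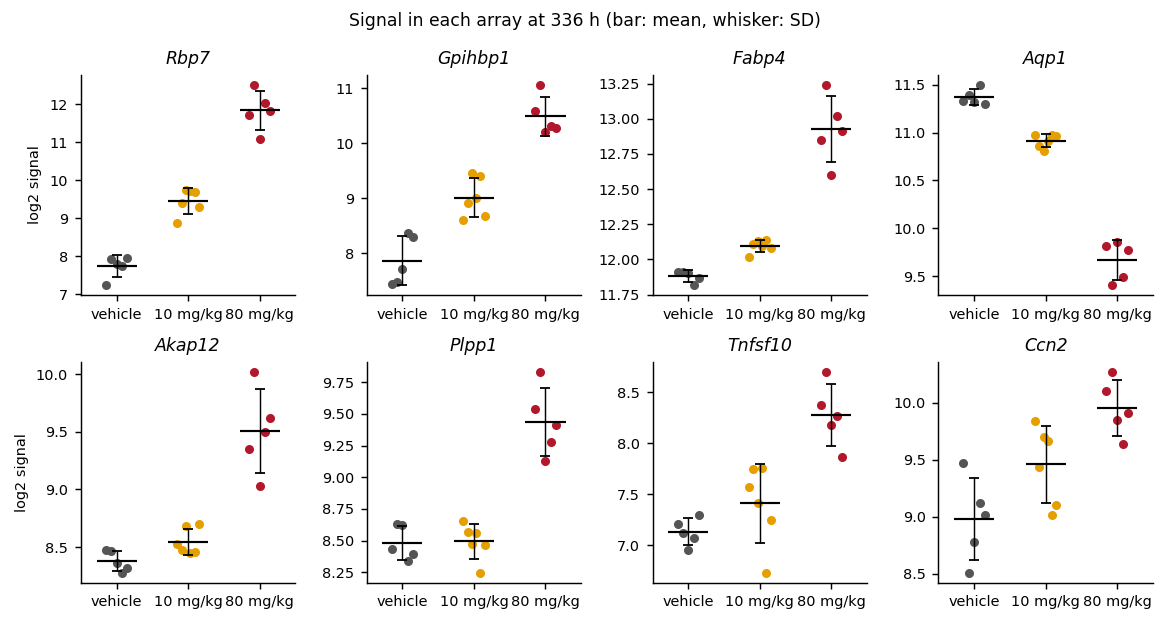
Log2 signal of 8 genes in each 336 h array, for 5 vehicle arrays, 6 at 10 mg/kg and 5 at 80 mg/kg, with the mean as a bar and the SD as a whisker. In all 8 genes shown the 80 mg/kg arrays lie wholly above or, for Aqp1, below the vehicle arrays, and the y axes do not start at 0.

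Retinoid genes moved in both directions. Cyp26b1, an enzyme that breaks down retinoic acid, read 7.52, 7.14, 7.63, 6.80 and 6.27 in vehicle arrays and 5.81, 6.09, 6.18, 5.60 and 5.69 in treated arrays. Each treated array was below each vehicle array, though vehicle replicate 6 came close to the highest treated one, and the fall was 2.29-fold (difference −1.20, SE 0.26, adjusted p = 0.0122). Its call was lost without any 1 of vehicle replicates 2 and 4 and treated replicates 4 and 5, with an adjusted p of up to 0.0908. Of 17 measured genes of retinoid binding and metabolism, 1 rose (Rbp7), 1 fell (Cyp26b1) and the median was −0.0008. The next largest differences of that list were −0.44 for the retinoic acid receptor Rarg (adjusted p = 0.783) and 0.43 for Aldh1a2, which makes retinoic acid (adjusted p = 0.901).

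The gene for the water channel aquaporin 1, Aqp1, which sits in capillary endothelium and red blood cells, fell. Vehicle arrays read 11.32, 11.39, 11.32, 11.50 and 11.30 and treated arrays 9.81, 9.41, 9.86, 9.50 and 9.77. The groups were far apart, with little spread in either, and the difference was −1.70 (SE 0.13, adjusted p = 2.92e-14), a fall of 3.24-fold with a 95% interval of 2.72 to 3.86. A second probe set of the gene fell by 1.80 on the log2 scale (SE 0.31, adjusted p = 0.000504), from 10.40 ± 0.16 (SD, n = 5) to 8.60 ± 0.43 (SD, n = 5). It was the only one of 18 measured genes of vasoactive peptides, receptors and water channels that passed. In that list the fat cell glycerol channel Aqp7 differed by −0.12, the enzyme Ace by −0.96 (adjusted p = 0.847) and the receptor Calcrl by −0.80 (adjusted p = 0.696). Red blood cells also carry Aqp1, and their marker genes differed by 0.04 (Hbb), 0.10 (Alas2) and −0.48 (Slc4a1), with 0 of 3 passing and a summed signal of 7554 to 9254 in vehicle and 7469 to 10344 in treated arrays.

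Of 17 measured phospholipase and eicosanoid genes 2 fell and 1 rose, where 0.398% of all genes passed the test. As a whole the list lay near 0, with a median of 0.03, 10 positive and 7 negative differences. Pla2g2a, a secreted phospholipase A2, read 9.94, 8.71, 10.48, 9.29 and 9.46 in vehicle arrays and 8.06, 7.51, 8.20, 8.05 and 7.68 in treated arrays. The vehicle arrays spread widely, but none reached down to a treated array, and the fall was 3.20-fold (difference −1.68, SE 0.34, adjusted p = 0.00641, or 0.0625 without vehicle replicate 4). Ggt5, which converts leukotriene C4 to D4, read 7.13, 7.47, 7.47, 7.41 and 7.06 in vehicle and 6.64, 6.41, 6.13, 6.29 and 6.53 in treated arrays. That was a fall of 1.88-fold with no overlap (difference −0.91, SE 0.15, adjusted p = 0.000247). Plpp1, a phosphatase of lysophosphatidic acid and related lipids, rose from 8.43, 8.63, 8.62, 8.34 and 8.40 to 9.54, 9.83, 9.13, 9.28 and 9.41. All treated arrays were above all vehicle arrays, with a difference of 0.95 (SE 0.13, adjusted p = 2.29e-06), or 1.94-fold.

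A pair of proteins that bind protein kinase A moved in opposite directions. Akap12, a scaffold for kinases A and C also called gravin, read 8.47, 8.47, 8.36, 8.28 and 8.31 in vehicle arrays and 9.35, 10.02, 9.03, 9.50 and 9.62 in treated arrays. The treated arrays all lay above the vehicle arrays, at a difference of 1.12 (SE 0.15, adjusted p = 1.73e-06), and a second probe set rose by 1.02 (SE 0.20, adjusted p = 0.00341). Myrip, which links myosin and Rab proteins and binds kinase A, read 7.59, 7.74, 7.73, 8.29 and 7.74 against 7.07, 6.54, 7.24, 6.82 and 6.81. Vehicle replicate 5 stood above its group and no array overlapped, with a fall of 1.89-fold (difference −0.92, SE 0.15, adjusted p = 0.000165); of the gene's other probe sets 1 differed by −0.50 (adjusted p = 0.291) and a dim one by 0.18 (adjusted p = 0.998). None of the other 17 measured genes for anchoring proteins and cyclic nucleotide signalling passed; their differences ran from −0.48 (Pde4d, adjusted p = 0.212) to 0.15 (Akap10).

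Matrix genes were mostly above vehicle. Of 42 measured extracellular matrix genes 39 had a positive difference and 3 a negative one, with a median of 0.23, whereas 51.1% of all genes were positive, and 3 passed the test, all higher; with the probe sets of a gene averaged, 34 were positive and 8 negative. Fn1, the fibronectin gene, read 8.16, 8.17, 8.31, 7.88 and 8.20 in vehicle and 8.95, 9.24, 8.72, 8.94 and 9.16 in treated arrays. Each treated array was above each vehicle array, and the difference was 0.86 (SE 0.21, adjusted p = 0.0415), although leaving out any 1 of 9 of the 10 arrays, all but treated replicate 3, took the adjusted p above the threshold, to at most 0.182. Nid1, a linker of basement membranes, read 10.36, 10.59, 10.37, 10.64 and 10.81 against 11.40, 11.33, 10.64, 11.45 and 11.27. Treated replicate 3 lay among the vehicle arrays and the other 4 above them, at a difference of 0.66 (SE 0.15, adjusted p = 0.0193). Lox, which crosslinks collagen and elastin, rose by 0.73 (SE 0.17, adjusted p = 0.0244), from 6.36, 6.66, 6.30, 6.11 and 6.73 to 7.29, 7.23, 7.10, 6.88 and 7.32. The calls of Nid1 and Lox were each lost on leaving out any 1 of 6 arrays, with an adjusted p of up to 0.093 and 0.146. For Nid1 these were vehicle replicates 2 and 4 and treated replicates 1, 2, 4 and 5, and for Lox vehicle replicates 2, 4 and 5 and treated replicates 1, 2 and 5.

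The fibrillar collagens of the same list did not pass, with 0.18 for Col1a1 (SE 0.22, adjusted p = 0.983) and 0.30 for Col3a1 (SE 0.13, adjusted p = 0.586). Larger differences without a call were those of 1.05 for Col8a1 (adjusted p = 0.486), 0.75 for elastin, Eln (adjusted p = 0.478), and 0.52 for Postn (adjusted p = 0.746). The summed signal of the matrix list ran from 38409 to 44018 in vehicle and from 37560 to 52046 in treated arrays, so the groups overlapped. Of 10 fibroblast marker genes, 6 of which are also in the matrix list, 6 had a positive difference, 0 passed and the median was 0.10, and their part in the matrix values was not tested.

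Ccn2, connective tissue growth factor, a secreted protein induced by TGF beta and by YAP with TEAD, was 1.97-fold higher. It read 9.47, 8.51, 8.78, 9.12 and 9.01 in vehicle arrays and 10.10, 10.27, 9.85, 9.64 and 9.91 in treated arrays. Vehicle replicate 2 was the highest of its group and lay just below the lowest treated array (difference 0.98, SE 0.19, adjusted p = 0.00269). It was the only one of 21 measured matricellular and TGF beta or YAP responsive genes that passed. Others of that list that are induced by the same factors differed by 0.05 (Ccn1), 0.18 (Ankrd1) and 0.15 (Amotl2).

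Among interferon responsive genes, the death receptor ligand Tnfsf10 and the chemokine Cxcl9 rose. Tnfsf10, also called TRAIL, read 7.21, 7.12, 6.96, 7.08 and 7.30 in vehicle and 8.38, 8.70, 8.18, 8.26 and 7.86 in treated arrays. The groups did not overlap, with a difference of 1.14 (SE 0.16, adjusted p = 1.05e-05). Cxcl9, which draws T cells, read 4.81, 5.77, 5.997, 5.52 and 6.07 against 6.86, 7.27, 6.23, 6.93 and 7.08. Treated replicate 3 came close to the highest vehicle array, and the difference was 1.24 (SE 0.26, adjusted p = 0.00725, or 0.0826 without vehicle replicate 2, the lowest); a brighter probe set of the gene differed by 0.93 (adjusted p = 0.054). Of 24 measured genes of that list 19 were positive, with a median of 0.11, where 51.1% of all genes were positive. Classical interferon genes did not pass, for example 0.07 for Isg15, 0.12 for Mx1, 0.10 for Irf1 and 0.19 for Cxcl10.

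Of 11 measured endothelial marker genes 1 passed, 6 were positive, 5 were negative and the median was 0.10. The gene that passed was Kdr, the main receptor for vascular endothelial growth factor, which read 9.70, 10.13, 9.90, 9.92 and 10.10 in vehicle and 10.46, 10.54, 10.19, 10.50 and 10.47 in treated arrays. Treated replicate 3 lay just above the highest vehicle array and below its own group, and the difference was 0.48 (SE 0.09, adjusted p = 0.00401, or 0.0616 with arrays scaled by their median). Pecam1, which all endothelial cells carry, differed by 0.12 (95% interval −0.12 to 0.36), and Flt1 by −0.44 (adjusted p = 0.741). In bulk tissue, a change in the number of cells of a type and a change in RNA per cell cannot be told apart.

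F2r and Ccm2l, which are in none of the lists, also rose. F2r, the thrombin receptor, rose by 0.76 (SE 0.11, adjusted p = 8.74e-06), from 8.55, 8.72, 8.61, 8.42 and 8.71 to 9.47, 9.56, 9.18, 9.33 and 9.26. Ccm2l, an endothelial relative of the cavernous malformation gene Ccm2, read 6.01, 6.33, 6.04, 6.17 and 6.08 against 6.98, 7.70, 6.58, 7.14 and 7.04. Treated replicate 2 was its highest array; the rise was 1.95-fold (difference 0.96, SE 0.19, adjusted p = 0.00488, or 0.0547 without that array).

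Glucose and triglyceride genes held 1 call each. Slc2a3, the glucose transporter GLUT3, read 5.31, 5.58, 5.89, 6.35 and 5.83 in vehicle and 6.73, 6.81, 6.36, 6.55 and 6.91 in treated arrays. Vehicle replicate 5 nearly reached treated replicate 3, and the difference was 0.88 (SE 0.18, adjusted p = 0.00769, or 0.0823 without vehicle replicate 2). The main transporters of heart muscle differed by 0.02 (Slc2a4, adjusted p = 0.998) and 0.03 (Slc2a1, adjusted p = 0.998), and 24 of 25 measured genes of glucose uptake and glycolysis did not pass. Mgll, monoacylglycerol lipase, which takes the final step of triglyceride breakdown, read 8.49, 8.51, 8.52, 8.60 and 8.29 against 9.53, 9.86, 8.83, 9.57 and 9.66. All treated arrays were above all vehicle arrays, with treated replicate 3 nearest to them (difference 1.01, SE 0.19, adjusted p = 0.00225). It was the only called gene of 29 measured genes of lipid droplets and triglyceride synthesis. Elovl6, a fatty acid elongase, differed by 1.42 (SE 0.37, adjusted p = 0.094) and the droplet protein gene Cidea by −0.68 (adjusted p = 0.211).

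Fatty acid oxidation enzymes lay below vehicle as a group without any single call. Of 24 measured enzymes 22 had a negative difference and 2 a positive one, with a median of −0.17 (21 negative and −0.11 on the deposited scale), where 48.9% of all genes were negative. After adjustment 0 passed, and 10 had an unadjusted p under 0.05 (over all tested probe sets 6.97% did). The closest to a call were Eci1, an enoyl-CoA isomerase, at −0.33 (SE 0.09, adjusted p = 0.0938), and Acadm, medium-chain acyl-CoA dehydrogenase, at −0.27 (SE 0.07, adjusted p = 0.112). Eci1 read 11.63, 11.89, 11.79, 11.68 and 11.81 in vehicle and 11.38, 11.50, 11.45, 11.43 and 11.39 in treated arrays, and Acadm 12.98, 13.07, 12.93, 13.01 and 13.003 and 12.62, 12.82, 12.82, 12.75 and 12.66. In neither did the groups overlap. The summed signal of the list ran from 93695 to 99582 in vehicle, from 83683 to 92145 at 10 mg/kg and from 81337 to 89425 at 80 mg/kg.

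Other PPAR alpha targets of heart, which overlap that list in part, were negative in 16 of 19 measured genes with a median of −0.08 and no call. Of all genes 48.9% were negative. Pdk4, the kinase that blocks pyruvate oxidation, differed by −0.02 (adjusted p = 0.998), with a sign that turned to 0.08 on the deposited scale, and Ucp3 by −0.07 (adjusted p = 0.998). Genes of the citric acid cycle and oxidative phosphorylation had 0 calls and a median of −0.01 over 33 genes, with 14 positive and 19 negative, and on the deposited scale a median of 0.02 with 18 positive.

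**Figure D3:**
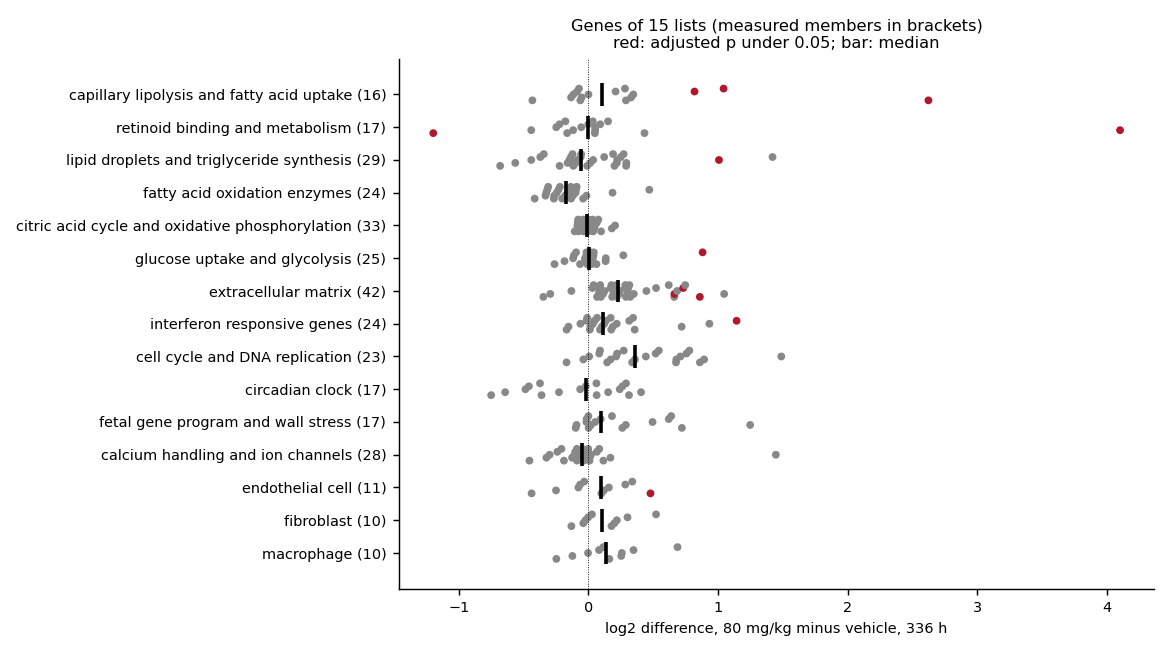
Each point is the log2 difference (80 mg/kg minus vehicle, 336 h) of 1 gene by its brightest probe set, in 15 of the gene lists with the number of measured members in brackets. Black bars are medians and red points passed the test. Matrix genes sit to the right of 0 with a median of 0.23, oxidation enzymes to its left with −0.17, and oxidative phosphorylation genes close to 0.

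Cell cycle and DNA replication genes were positive in 21 of 23 measured members with a median of 0.36 and 0 calls, 7 of them at an unadjusted p under 0.05. Of all genes 51.1% were positive, and 6.97% of all tested probe sets had an unadjusted p under 0.05. Top2a, a topoisomerase of dividing cells, read 6.48, 6.26, 5.995, 6.07 and 6.05 in vehicle and 7.06, 6.84, 6.45, 7.26 and 7.54 in treated arrays. Treated replicate 3 lay among the vehicle arrays and the other 4 above them, at a difference of 0.86 (SE 0.29, adjusted p = 0.323). The proliferation marker Mki67 differed by 0.89 (adjusted p = 0.592).

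Genes of wall stress and of the fetal program gave no call among 17 measured. Nppa, the atrial natriuretic peptide gene, read 10.03, 9.76, 9.45, 10.55 and 8.56 in vehicle and 11.49, 11.45, 9.33, 10.57 and 11.76 in treated arrays. Treated replicate 3 was lower than 4 of the vehicle arrays and the other treated arrays were above all of them, with a difference of 1.25 (SE 0.63, adjusted p = 0.722). Nppb differed by 0.49 (adjusted p = 0.663) and Myh7, the slow myosin, by 0.64 (adjusted p = 0.828). Of the atrial marker genes, Myl7 differed by 0.36 and Sln by 1.45 (adjusted p = 0.872); 0 of 6 passed, their summed signal ran from 1491 to 2715 in vehicle and 2170 to 5250 in treated arrays, and their part in the Nppa value was not tested.

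Calcium handling and ion channel genes gave 0 calls among 28 measured, with 8 positive, 20 negative and a median of −0.05, against 14 and 14 with a median of 0.00 on the deposited scale. The calcium pump gene Atp2a2 differed by 0.02 (adjusted p = 0.998), with a sign that turned to −0.07 on the deposited scale, and the exchanger Slc8a1 by 0.07. Other probe sets of Atp2a2 ran from −0.16 to 0.10 and another of Slc8a1 gave −0.31, all without a call. Clock genes gave 0 calls among 17, with 8 positive and 9 negative; Dbp, a clock output factor, differed by −0.75 (SE 0.29, adjusted p = 0.506). Insulin and insulin-like growth factor genes (20 measured, median 0.05), stress and antioxidant genes (19, median 0.07), antigen presentation genes (11, median 0.15), immediate early genes (17, median 0.13) and the PPAR receptors with their coactivators (14, median 0.02) likewise held no call.

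Among the remaining changed genes, Lck is a marker of T and natural killer cells. Slc22a3, an organic cation transporter, fell by 0.78 on the log2 scale (SE 0.18, adjusted p = 0.0285), with vehicle arrays at 7.77, 7.72, 7.49, 7.79 and 7.37 and treated arrays at 6.42, 7.41, 7.005, 7.23 and 6.19. Treated replicate 2 lay within the vehicle range. Afdn, the junction adaptor afadin, fell from 8.62, 8.70, 8.54, 8.64 and 8.64 to 8.31, 7.97, 8.27, 8.30 and 8.26. That was a small difference of −0.41 (SE 0.08, adjusted p = 0.00341, or 0.516 with arrays scaled by their median) in a gene whose arrays varied little, treated replicate 2 being the lowest. Lck, a kinase of T cells, rose by 0.51 (SE 0.11, adjusted p = 0.0193), from 6.96, 6.84, 6.75, 6.93 and 6.89 to 7.40, 7.49, 7.06, 7.53 and 7.44. It was the only one of 6 measured markers of these cells that passed, with a summed signal of the 6 at 439 to 496 in vehicle and 422 to 508 in treated arrays. The others included −0.66 for Cd3e (adjusted p = 0.318), −0.63 for Cd2 (adjusted p = 0.65) and 0.41 for Cd3g (adjusted p = 0.93). Slc22a3 lost its call on leaving out any 1 of vehicle replicates 2, 3 and 5 and treated replicates 1 and 5 (adjusted p up to 0.261), and Lck on leaving out any 1 of vehicle replicates 3 and 4 and treated replicates 1, 2, 4 and 5 (up to 0.0881).

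Tmcc3 read 9.14, 8.75, 8.72, 8.86 and 8.78 in vehicle and 9.66, 10.51, 9.85, 9.44 and 9.33 in treated arrays and Armcx4 6.68, 6.80, 6.73, 6.69 and 6.50 and 7.94, 7.85, 7.41, 7.47 and 7.29. In both, all treated arrays were above all vehicle arrays, with differences of 0.90 (adjusted p = 9.13e-06) and 0.91 (adjusted p = 0.000143). Tril, a partner of Toll-like receptors, rose by 0.90 (adjusted p = 0.000504), with treated replicate 3, at 7.95, below the highest vehicle array, at 8.04. The beta tubulin gene Tubb2b rose by 0.79 (adjusted p = 0.0195), from 5.52, 5.52, 6.01, 5.70 and 5.84 to 6.76, 6.26, 6.60, 6.56 and 6.39. The adhesion molecule gene Ceacam1 rose by 0.78 (adjusted p = 0.0415), from 5.36, 5.40, 5.06, 5.29 and 5.28 to 6.31, 6.31, 5.59, 6.13 and 5.92. Neither gene's groups overlapped. Tubb2b lost its call without any 1 of vehicle replicates 2, 3 and 5 and treated replicates 1 and 4 (adjusted p up to 0.0999), and Ceacam1 without any 1 of the arrays but treated replicate 3 (up to 0.194).

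Fancd2os, named for the strand opposite Fancd2, had a difference of 1.54 (SE 0.37, adjusted p = 0.0415). Its vehicle arrays read 5.26, 4.22, 2.20, 2.52 and 5.87 and its treated arrays 5.78, 5.13, 5.33, 5.45 and 6.10. The groups overlapped, vehicle replicates 4 and 5 were far below the others of their group, and the vehicle mean of 4.01 lay below the level of 5.03 that served as the filter on dim probe sets. The call was lost without any 1 of vehicle replicates 3, 4 and 5 and treated replicates 1, 4 and 5, with a difference between 1.09 and 2.01 over all arrays left out. The other 13 genes, which the rule for naming genes left out and which are named after their values were seen, rose by 0.35 to 0.69 with adjusted p from 0.00108 to 0.04999. They were Snn, Hrct1, Ggta1, Clic1, Stk17b, Selenom, Dram1, LOC100910973, Fam43a, Ctla2a, Tm9sf3, Reep3 and Fkbp9. A further 8 called probe sets carry no gene name here, 7 with no gene listed and 1 with several, and differed by 0.40 to 1.13.

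**Figure D4:**
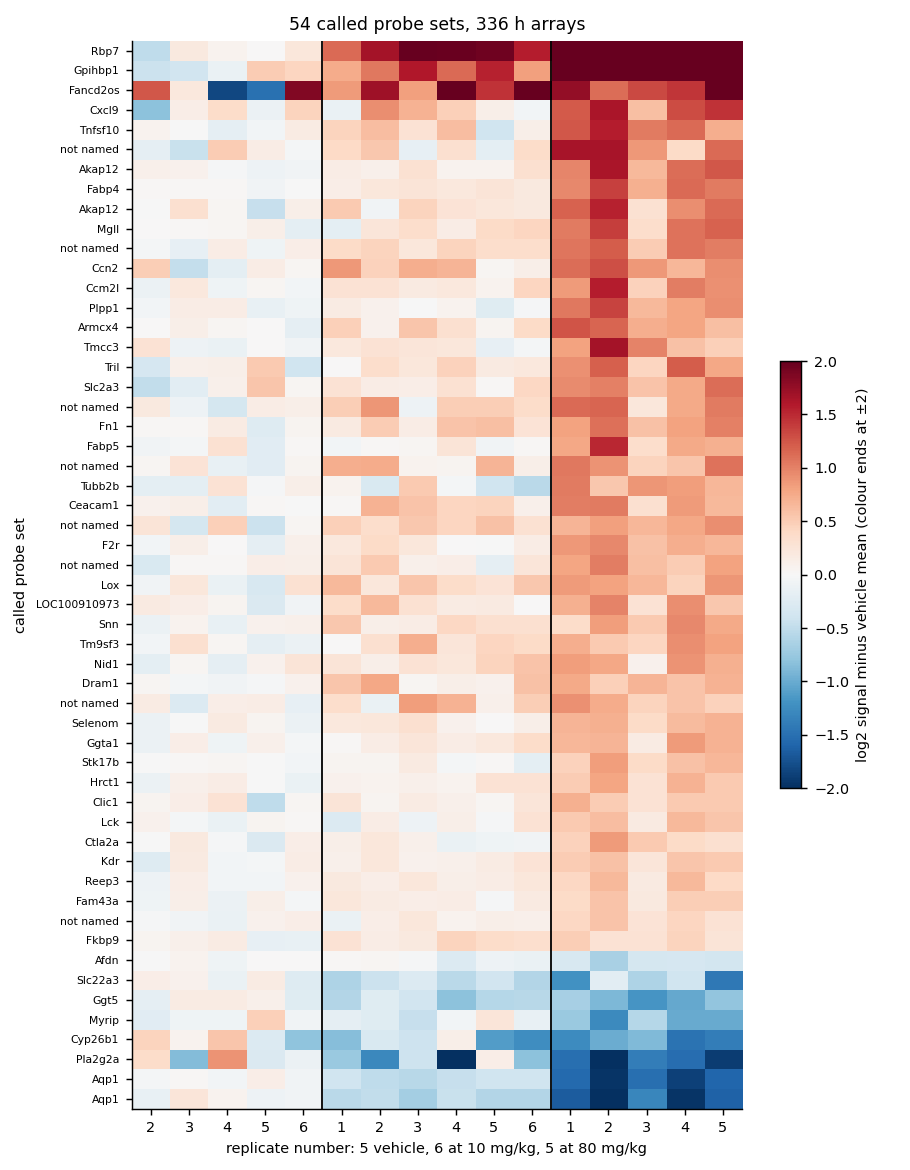
Rows are the 54 probe sets that passed the test, ordered by their difference, and columns are the 16 arrays of 336 h by replicate number. Colour is the log2 signal minus the vehicle mean, with the scale ending at 2 in either direction. The 5 columns at 80 mg/kg are red for the 46 higher and blue for the 8 lower probe sets, palest as a rule in replicate 3.

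Treated arrays did not respond to the same degree. Replicate 3 was the lowest treated array in 33 of the 46 higher probe sets, with a median of 0.48 over the vehicle mean. Replicate 2 was the highest in 28, with a median of 1.01, and the other 3 replicates had medians of 0.74 to 0.86. Without replicate 3 the count of probe sets that passed was 66, and without replicate 1 it was 33 (25 higher and 8 lower).

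At 10 mg/kg none of the 18625 probe sets passed against the same vehicle arrays (0%), with 676 at an unadjusted p under 0.05 (3.63%) and a smallest adjusted p of 0.414. These arrays share their vehicle group with the comparison at 80 mg/kg, so the values are given side by side only. For Rbp7 the difference from vehicle was 1.71 (SE 0.38) at 10 mg/kg and 4.10 at 80 mg/kg, with 10 mg/kg arrays at 8.87 to 9.73. For Gpihbp1 the values were 1.15 (SE 0.26) and 2.62, with 10 mg/kg arrays at 8.61 to 9.46. For Fabp4 they were 0.21 (SE 0.13) and 1.04, with 10 mg/kg arrays at 12.02 to 12.14, and for Aqp1 −0.45 (SE 0.12) and −1.70, with 10 mg/kg arrays at 10.81 to 10.97. In each of these 4 genes the 6 arrays at 10 mg/kg lay between the vehicle and the 80 mg/kg arrays without touching either. That separation was not counted over the other probe sets. By group means, 10 mg/kg lay between vehicle and 80 mg/kg in 45 of the 46 higher and all 8 lower called probe sets. An order of this kind was therefore not special to these 4 genes, and the called probe sets were selected with the same vehicle and 80 mg/kg arrays. Plpp1, at 0.01 and 0.95, and Fabp5, at 0.04 and 0.82, were close to 0 at the lower dose. Fancd2os had nearly the same value at both, at 1.49 and 1.54.

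The doses themselves were compared at matched time. Between 80 and 10 mg/kg 19 probe sets differed (0.102%), 17 higher (0.0913%) and 2 lower (0.0107%) at the higher dose, and 669 had an unadjusted p under 0.05 (3.59%). By the difference of 80 minus 10 mg/kg, Rbp7 was 2.39 higher (SE 0.38, adjusted p = 0.000227), Gpihbp1 1.47 (SE 0.26, adjusted p = 0.00097), Akap12 0.96 (SE 0.14, adjusted p = 5.42e-05) and Plpp1 0.94 (SE 0.12, adjusted p = 2.73e-06). Tubb2b was 0.91 higher (adjusted p = 0.00335) and Tnfsf10 0.86 (adjusted p = 0.00231). The lower 2 were Aqp1 at −1.25 (SE 0.12, adjusted p = 7.22e-10) and Myrip at −0.78 (SE 0.14, adjusted p = 0.00244). For Ccn2 the difference between doses was 0.50 (SE 0.18, adjusted p = 0.998) and for Fn1 0.48 (SE 0.20, adjusted p = 0.999), neither of which passed.

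Earlier times used other arrays for both groups, so their differences come from samples that did not set the size of the differences at 336 h. The spread of each probe set was estimated over all 62 arrays. The p-values at the earlier times therefore share that spread with the selection of the 54 and are not independent of it. At 168 h 52 of the 54 probe sets had the same sign of difference (96.3%, against 57.2% of all tested), 35 had an unadjusted p under 0.05 (5.44% of all did) and 8 passed the test there (0.0537% of all did). At 24 h 41 had the same sign (75.9% against 48.9%) and 6 passed (0.14% of all), and at 6 h 44 had the same sign (81.5% against 54%) and 5 passed (0.0537% of all). The atrial gene Myl7 was unevenly spread at 24 h. It read 12.86, 12.94 and 11.997 in 80 mg/kg replicates 2, 4 and 5, and 7.56 and 7.59 in replicates 3 and 6. The vehicle arrays of 24 h read from 6.67 to 7.97. The 24 h groups also differed in array quality. All vehicle arrays of 24 h but replicate 2 fell in 1 array cluster, whereas the 80 mg/kg arrays were spread over 3. The log2 ratio of 3′ to 5′ signal of the hexokinase control ran from 1.87 to 6.08 in vehicle and from 1.49 to 2.59 at 80 mg/kg. The part of atrial signal, cluster and control ratio in the 24 h counts, and in the 24 h values of single genes, was not tested. All 54 were larger in size at 336 h than at 168 h, but they were selected at 336 h, which favours that order. No probe set passed the test of the effect at 336 h minus the effect at 168 h (0%), with 639 at an unadjusted p under 0.05 (3.43%), a smallest adjusted p of 1, and 0 under every alternative run.

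Rbp7, Gpihbp1 and Fabp4 were higher than vehicle at each time. Rbp7 differed from vehicle by 2.93 (SE 0.43) at 6 h, 2.95 (SE 0.38) at 24 h, 3.76 (SE 0.38) at 168 h and 4.10 at 336 h. Gpihbp1 gave 1.48, 1.70, 2.42 and 2.62 in the same order, and Fabp4 1.004, 0.73, 0.94 and 1.04. All 3 passed each time, with adjusted p of at most 0.0143. Slc2a3 passed at 6 h, with 1.21 (adjusted p = 0.000555), and at 336 h, with 0.88, and gave 0.15 at 24 h and 0.55 at 168 h without passing. Fabp5 passed at 168 h as well, with 0.78 (adjusted p = 0.0234).

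Other genes differed from their own effect at 6 h, by a comparison added after the data were seen. In it 5 probe sets passed (0.0268%), and 1003 had an unadjusted p under 0.05 (5.39%). Aqp1 differed from vehicle by −0.15 at 6 h, −0.81 at 24 h, −1.25 at 168 h and −1.70 at 336 h, so its effect at 336 h was different from that at 6 h by −1.54 (SE 0.18, adjusted p = 6.49e-07). That is the probe set with the smallest p; the gene's other called probe set gave −0.02, −0.11, −1.14 and −1.80, and its difference between 336 h and 6 h did not pass (−1.78, adjusted p = 0.237). Ccn2 went from −0.64 at 6 h through −0.12 and 0.35 to 0.98, a difference between the times of 1.62 (SE 0.27, adjusted p = 0.00183). Akap12 went from 0.07 through −0.11 and 0.60 to 1.12 (difference between the times 1.05, SE 0.21, adjusted p = 0.0382). Its other called probe set gave 0.60 at 6 h and 1.02 at 336 h, with a difference between the times of 0.42 (SE 0.29, adjusted p = 0.995).

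Afdn gave 0.15 at 6 h and −0.41 at 336 h (difference between the times −0.56, adjusted p = 0.0389), and Sox7, a transcription factor of endothelium, 0.68 and −0.38 (difference −1.06, adjusted p = 0.0165). Leaving out 1 array ended the call in 13 of 19 cases for Akap12, 15 for Afdn and 5 for Sox7, with adjusted p of at most 0.238, 0.162 and 0.0931, and in none for Aqp1 and Ccn2. On the deposited scale, where the median of all probe sets in this comparison was −0.33, none of the 5 passed (Aqp1 −1.83, adjusted p = 0.191), and with arrays scaled by their median only Aqp1 did (−1.50, adjusted p = 0.000474). Some arrays at 6 h carried high atrial genes, with Myl7 up to 12.29 in the vehicle and 12.09 in the 80 mg/kg arrays there against at most 8.53 at 336 h, and the part of that in these differences was not tested.

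**Figure D5:**
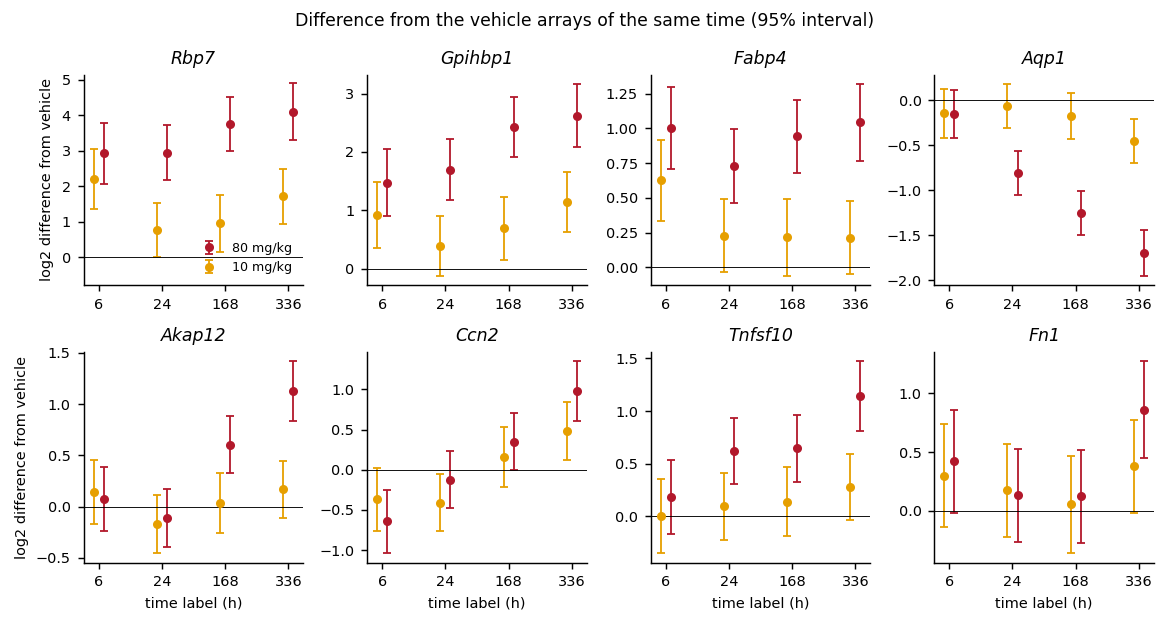
Log2 difference from the vehicle arrays of the same time, with 95% intervals, for 8 genes at 80 mg/kg (red) and 10 mg/kg (orange), by the time given in the labels, each gene by its called probe set with the smallest p. Rbp7, Gpihbp1 and Fabp4 are above 0 at all 4 times at 80 mg/kg, while at 80 mg/kg Aqp1 goes from −0.15 at 6 h to −1.70 at 336 h and Ccn2 from −0.64 to 0.98.

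Markers of the other cell types that heart tissue can hold were read in the same arrays. Ventricular muscle markers had 0 calls among 11, a median of −0.02 and a summed signal of 127460 to 130640 in vehicle and 125720 to 130800 in treated arrays. Over all 62 arrays Tnnt2 ran from 13.96 to 14.11 and Myh6 from 13.83 to 14.04, near the top of the scale. Quantile normalization gives all arrays the same top values, so this sum can differ little and does not measure muscle content. Macrophage markers had 0 calls among 10 (median 0.14), smooth muscle and pericyte markers 0 among 11 (median 0.02), lymphatic endothelial markers 0 among 6 (median −0.14) and markers of arterial or venous endothelium and endocardium 0 among 7 (median 0.21). Mesothelial markers (5 measured), Schwann cell and neuron markers (3) and neutrophil and mast cell markers (2) had 0 calls, and no B cell marker passed the filter on dim probe sets. Of all 10557 genes only 0.398% passed, so lists this short would mostly hold no call. The counts of 0 therefore do not show that these cell types were unchanged.

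Fat cells also express Fabp4, and 4 of 10 fat cell markers were measured. Fabp4 rose, Cidea differed by −0.68, Lipe by −0.10 and Cfd by 0.15. The defining fat cell genes Adipoq, Plin1, Cidec, Lep and Retn had no probe set of 1 gene above the filter. Plin1, the droplet coat protein gene of fat cells, read between 4.04 and 5.65 in vehicle and between 4.53 and 5.37 in treated arrays, around the filter level of 5.03. The summed signal of the 4 measured markers ran from 6006 to 6518 in vehicle and from 7761 to 11423 in treated arrays, mostly from Fabp4 itself, and the part of fat cells in the Fabp4 value was not tested.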

How the data were processed

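Rat heart RNA of 62 samples was read on Affymetrix rat arrays, 1 array a sample. The authors deposited intensity values per probe set, made with GCOS and MAS5 per the submitters' processing notes, whose versions the sources used here do not give; their median per array ran from 31.1 to 86.9, so arrays were not on a common scale. Of 31099 probe sets 57 controls were left out, values were taken to log2 and quantile normalized, and 18625 probe sets whose mean over all arrays was at or above the 40th percentile (5.03) were tested. Limma 3.58.1 in R 4.3.3 fitted 12 group means (50 residual degrees of freedom) with moderated two-sided tests, p-values adjusted by Benjamini-Hochberg over all tested probe sets and a threshold of 0.05. The fit was tested on simulated data with known changes added to independent normal noise of each probe set's real spread. That simulation held no array clusters and no normalization step, so it checks the fit and not the calls made here. Genes came from the platform's annotation, which can be old: 14260 tested probe sets had 1 gene, 338 several and 4027 none listed, and 20764 gene identifiers of the array matched RefSeq with 0 symbols replaced.

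Samples were grouped by their titles. Among called probe sets with 1 gene, the text names the 20 largest rises and 10 largest falls by the probe set with the smallest p, every called member of a list, for other comparisons up to 6 in each direction, and a fixed set of genes whatever their p. A list's genes are counted by their brightest probe set, over 22 pathway and 15 cell type lists. Of all 10557 genes so counted 0.398% passed, so a list without a call does not show that its genes were unchanged. Members and lists were chosen with earlier results of these data known, so the counts within a list describe it and do not test it. Alternatives were the deposited and a median scale, no filter or the 60th percentile, 16 added before the log, array weights, replicate number, control ratios or array cluster in the model, subsets of arrays, averaged probe sets and each array left out. The number of arrays limits the precision.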

Additional observations from a re-analysis of the deposited data

Results flagged for a closer look

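In 11 of 168 groups of arrays checked, 1 array stood apart from the others of its group, where chance marks about 1 in 20. At 80 mg/kg replicate 3 stood apart for 5 genes. It read 10.19 for Kdr with the next array at 10.46, 10.64 for Nid1 (next 11.27), 7.056 for Lck (next 7.398), 10.74 for Nppb (next 11.67) and 11.08 for Pdk4 (next 10.38). This array was also the lowest treated array in 33 of the 46 probe sets that rose. Replicate 2 of the same group read 7.975 for Afdn (next 8.259). In the vehicle group replicate 5 stood apart for Myrip, at 8.289 (next 7.74), and for Atp2a2, at 13.89 (next 13.92). At 10 mg/kg replicate 4 read 10.20 for Fabp5 (next 9.98), replicate 6 read 12.55 for Col3a1 (next 12.39) and replicate 5 read 5.417 for Edn1 (next 6.277).

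The effect of 80 mg/kg at 336 h differed from its effect at 6 h, by the test of that difference, for 5 genes. The difference of the log2 effects was 1.617 for Ccn2, 1.053 for Akap12, −1.541 for Aqp1, −0.561 for Afdn and −1.061 for Sox7. The second called probe sets of Akap12 (0.42, adjusted p = 0.995) and Aqp1 (−1.78, adjusted p = 0.237) did not pass this test. The dependence of all 5 on single arrays and on the scaling is given with the values by time.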

How the results depend on the processing

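The count of 54 probe sets at 80 mg/kg was 44 to 78 under the median scale, other filters, the added offset, the replicate block, control ratios, the array cluster and the 336 h arrays alone, but the probe sets were not all the same: 43 of the 54 were called on the median scale, 43 with no filter, 48 at the 60th percentile and 35 with the 336 h arrays alone. The count was 5 on the deposited scale, 232 with array weights (153 higher and 79 lower), 27 for the 10 arrays alone (an alternative added after seeing the data), and 33 to 66 on leaving out 1 array. At 10 mg/kg the count was 5 with array weights, 1 for the 336 h arrays alone, 0 to 1 on leaving out 1 array (1 without vehicle replicate 6) and 0 otherwise. Between the doses, 19 became 3 on the deposited scale, 50 with array weights and 30 in the fit that held array cluster as a block, and 13 (without 80 mg/kg replicate 2) to 27 (without 80 mg/kg replicate 3) on leaving out 1 array. For 336 h minus 6 h, added after seeing the data, 5 became 0 on the deposited scale, 1 on the median scale, 3 with no filter, 9 with array weights, 2 with the arrays of both times alone and 2 to 6 on leaving out 1 array. The causes were not tested.

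Of 31 called genes named by the rule, Rbp7, Gpihbp1, Fabp4 and Aqp1 kept their call under all 21 alternatives, and the other 27 lost it on the deposited scale with their direction kept. The median scale ended 5 calls (Fn1, Slc22a3, Afdn, Kdr and Nid1), no filter 4 (Fancd2os, Fn1, Ceacam1 and Slc22a3) and the 336 h arrays alone 9 (Fancd2os, Cxcl9, Fabp5, Tubb2b, Pla2g2a, Cyp26b1, Slc22a3, Nid1 and Lck). The 10 compared arrays alone ended 20 of the 31 calls, among them those of Ccn2, Mgll, Ccm2l, Tmcc3, Tril, Slc2a3, Myrip, Kdr and Lox. The 11 kept there were Rbp7, Gpihbp1, Tnfsf10, Akap12, Fabp4, Plpp1, Armcx4, Fn1, F2r, Aqp1 and Ggt5. Leaving out 1 array ended no call for 17 of the 31. Among genes with no call, Pdk4 turned to 0.0765 on the deposited scale, 0.0736 on the median scale and 0.0269 with the replicate block, and Atp2a2 to −0.0666 and −0.0695 on these scales. Leaving out 1 array, Pdk4 ran from −0.18 to 0.13, Ppara from −0.19 to 0.042, Slc2a1 from −0.051 to 0.082, Slc2a4 from −0.018 to 0.050 and Ucp3 from −0.22 to 0.050. Deviations of samples with the same replicate number in the vehicle and 80 mg/kg groups correlated at −0.053 to 0.0086. These correlations were not set against those of samples with unlike numbers, so they cannot decide whether the numbers mark a pairing or a block. With the replicate number as a block, 44 probe sets were called, 42 of them among the 54, the calls of Tubb2b, Ceacam1, Pla2g2a, Slc22a3 and Lox were lost, and the doses differed in 19, of which 15 were the same. Quantile normalization assumes a like distribution in all arrays, the MAS5 signal of dim probe sets is noisy, and 5 arrays a group give few calls to small differences.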

Other observations

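A few genes of the lists had large differences without a call. Prc1, a midzone protein of dividing cells, differed by 1.49 (SE 0.52, adjusted p = 0.4), Egr1, an immediate early factor, by 1.05 (SE 0.50, adjusted p = 0.667), and Cd68, a lysosomal protein of macrophages, by 0.69 (adjusted p = 0.911). The first principal component of the 10 arrays held 16.6% of their variance, with all 5 vehicle arrays below 0 (−27.2 to −7.05) and all 5 treated arrays above it (5.97 to 33.3).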
